A study of Mus musculus with 22 samples.

Results

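The genes described here are 9 that mark regions of the brain and hindbrain in the vertebrate embryo: Otx2, Six3, Hesx1, En1, Gbx2, Pax2, Pax8, Egr2 and Wnt1. They were taken by symbol from the gene list of the count matrices, each matched 1 row of the 32285 listed, and their values were followed across 77674 cells of mouse gastruloids. A gastruloid is an aggregate of embryonic stem cells that elongates and forms derivatives of the germ layers in culture. All came from wild-type E14Tg2A mouse embryonic stem cells, an established line, seeded at 300 cells per well, aggregated for 48 hours and then given the Wnt pathway agonist CHIR99021 at 3 µM. No group differs in genotype or treatment, so the groups are days and experiments. Cells were read by 10x single-cell RNA sequencing at day 3 to day 5 in 18 lanes, and in the MULTI-seq experiments a lipid barcode marked the gastruloid of origin.

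In the embryo these genes divide the neural plate along its length. Otx2 is a homeodomain factor needed for forebrain and midbrain, and is also expressed in epiblast and in anterior visceral and definitive endoderm. Six3 and Hesx1 mark the most anterior neural plate. Gbx2 is needed for the anterior hindbrain, and its mutual repression with Otx2 places the boundary of midbrain and hindbrain, where En1, Wnt1, Pax2 and Pax8 are expressed. Egr2, also called Krox20, marks rhombomeres 3 and 5, while Pax2 and Pax8 also act in otic placode and kidney primordium.

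Of the 9 genes, Gbx2 was the one broadly detected in the cells that the authors gave neural names, with a molecule in 71.1% of them against at most 2.87% for any other. Mature Endoderm held 53.8% of the Six3 and 59.5% of the Hesx1 UMIs, and endoderm, streak, head mesoderm and nascent mesoderm names together held 78.8% of the Otx2 UMIs. At most 5.49% of the UMIs of each of these 3 genes lay in neural names. En1 and Wnt1 had most of their molecules in neural names, where 567 of the 1256 cells with an En1 UMI and 25 of the 40 with a Wnt1 UMI lay. Egr2, Pax2 and Pax8 were sparse and scattered over neural, mesodermal and other names. Values are unique molecular identifier (UMI) counts, given as CPM, the usual scaling of a gene's count to the total UMIs of the same cells, from 3′ libraries with no length scale, so levels of different genes are not compared with each other.

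Of the cells, 53730 had 1 gastruloid call, and 135 of the 136 gastruloids had the 30 or more cells required. They comprise 24 of MULTI-seq 1, all of day 5; 11 of day 4 and 12 of day 4.5 from MULTI-seq 2; and, from MULTI-seq 3, 24 of day 3 and 16 of each of days 3.5, 4, 4.5 and 5. The labels give them as separate gastruloids of 1 cell line, so p-values measure the spread between gastruloids of that line. Summed UMIs per gastruloid ranged from 1293296 to 57333371, and median UMIs per cell from 8287 to 38443 between lanes. In MULTI-seq 3, days 3.5 and 4 shared lanes, as did days 4.5 and 5. Cell barcodes shared by any pair of lanes were at most 0.408% of those of the smaller lane. The 2 10x lanes without gastruloid barcodes and 2 further lanes of MULTI-seq 2 enter only the sums over all cells, and the day 3 and 3.5 lanes of MULTI-seq 2 were not analysed here.

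The neural names were checked against 8 neural markers. Their summed level was 983 CPM in Late Spinal Cord, 893 in Neurons, 743 in Late Neurectoderm, 705 in Early Spinal Cord and 428 in Caudal Neurectoderm. Early Neurectoderm reached 237 CPM, rank 20 of the 25 names, with Sox1 at 17.1, Pax6 at 0.465 and the pluripotency factor Pou5f1 at 710 CPM, so it is called here by the authors' name only. Mature Endoderm had the highest sum over the anterior visceral and definitive endoderm markers, 2915 CPM, with Sox17 at 259 and Foxa2 at 124 CPM, while Sox1 was at 0.613. Head Mesoderm had the secreted Nodal inhibitor Cer1 at 207 CPM and the paraxial mesoderm factor Tcf15 at 254 CPM, with Sox17 at 0.396. The names were made by the authors from the expression of these cells, so levels by name carry no test.

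The windows upstream of the annotated starts of 5 members are printed because Otx2, Six3 and Hesx1 were detected together in single endoderm cells, and En1 and Wnt1 together in single Late Neurectoderm cells, as given further on. All 9 members matched the RefSeq promoter table for GRCm38.p6, in 18 entries. Each sequence is 1 window of up to 250 bases before an annotated start, without annotated exon bases, on the gene's strand and 5′ to 3′, and capitals mark matches to the 5 motifs searched. Those were TAATCC, the site type that Otx2 itself binds, TAATTA, a core bound by many homeodomain factors, CTTTGA, a core of sites for the Wnt effectors Tcf and Lef, the CCAAT box and the TATA box as TATAAA. Both strands were searched, so that ATTGG is a match to CCAAT. The windows lie at chr14:48667645-48667894 for Otx2 (minus strand), chr17:85620584-85620789 for Six3, chr14:27000112-27000361 for Hesx1, chr1:120602237-120602417 for En1 and chr15:98789607-98789856 for Wnt1 (all plus strand).
Otx2: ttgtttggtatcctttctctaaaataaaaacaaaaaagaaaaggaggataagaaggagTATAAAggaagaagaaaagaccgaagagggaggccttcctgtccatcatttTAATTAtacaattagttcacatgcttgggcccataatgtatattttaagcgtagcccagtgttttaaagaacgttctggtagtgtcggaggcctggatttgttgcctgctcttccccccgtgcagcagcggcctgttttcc
Six3: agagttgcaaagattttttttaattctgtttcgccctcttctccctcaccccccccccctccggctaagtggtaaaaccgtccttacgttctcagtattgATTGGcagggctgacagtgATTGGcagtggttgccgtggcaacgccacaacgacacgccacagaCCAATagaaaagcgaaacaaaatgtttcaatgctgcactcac
Hesx1: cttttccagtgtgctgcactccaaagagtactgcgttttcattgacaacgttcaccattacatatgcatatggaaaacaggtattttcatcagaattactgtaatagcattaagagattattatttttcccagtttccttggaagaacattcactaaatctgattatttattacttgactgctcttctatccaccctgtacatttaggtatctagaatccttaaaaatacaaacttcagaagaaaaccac
En1: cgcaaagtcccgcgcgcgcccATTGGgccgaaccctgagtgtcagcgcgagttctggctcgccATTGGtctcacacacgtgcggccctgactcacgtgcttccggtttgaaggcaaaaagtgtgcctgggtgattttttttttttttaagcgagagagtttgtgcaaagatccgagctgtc
Wnt1: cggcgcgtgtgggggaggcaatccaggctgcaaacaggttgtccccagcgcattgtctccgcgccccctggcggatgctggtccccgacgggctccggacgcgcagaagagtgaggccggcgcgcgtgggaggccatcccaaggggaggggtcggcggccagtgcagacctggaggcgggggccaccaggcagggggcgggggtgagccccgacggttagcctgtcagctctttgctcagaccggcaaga
The printed Otx2 window held 1 TATAAA and 1 TAATTA, Six3 held 3 matches to CCAAT and En1 held 2, and the Hesx1 and Wnt1 windows held none of the 5 motifs. Other Otx2 entries, searched with exon bases kept, differed. The one at chr14:48665110-48665359 held 1 TAATCC and 3 TAATTA, and that at chr14:48667509-48667758 held 1 match to CCAAT. All 32851 promoter windows were searched over the full 250 bases, exon bases kept, while the printed Six3 and En1 windows have 206 and 181 bases. Among them CCAAT was in 33.8%, CTTTGA in 13.8%, TATAAA in 12.4%, TAATCC in 6.25% and TAATTA in 4.84%. GC content was 42.0% for Otx2, 49.5% for Six3, 34.0% for Hesx1, 55.2% for En1 and 71.6% for Wnt1.

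Otx2 (ENSMUSG00000021848, chr14:48657677-48673819, minus strand, GRCm38) gave 33169 UMIs in 8815 cells, of which 1.55% lay in the 6 neural names. Its pooled level was 0.893 CPM in neural names and 19.0 CPM in the others. Endoderm, streak, head mesoderm and nascent mesoderm names held 78.8% of its UMIs. It was highest in Anterior Primitive Streak at 129 CPM, followed by Mature Endoderm at 95.4, Head Mesoderm at 82.9, primordial germ cells (PGCs) at 80.5, Late Nascent Mesoderm at 67.6 and Early Nascent Mesoderm at 41.6 CPM. Neural names were lower: 5.64 CPM in Late Neurectoderm, 2.36 in Early Neurectoderm, 0.364 in Caudal Neurectoderm, 0.151 in Early Spinal Cord and 0.108 in Late Spinal Cord. Neurons stood at 10.1 CPM, but on 12 UMIs from 70 cells. In Early Neurectoderm of MULTI-seq 3, Otx2 was at 1.48 CPM at day 3 and 0 at day 3.5. It was at 5.28 CPM in cells of the lanes of days 3.5 and 4 that were not assigned to 1 day. Barcode 7 of MULTI-seq 3 day 4 held 27 Otx2 UMIs over 6 cells of this name, and without it the pooled level was 2.02 CPM.

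The share of cells with an Otx2 UMI was compared after each cell was thinned to 5000 UMIs, which leaves out 214 shallower cells of the series. It was 43.2% in Anterior Primitive Streak (78.8% before thinning), 28.2% in Head Mesoderm (71.4%) and 26.4% in Mature Endoderm (56.6%). Early Spinal Cord, which should lack Otx2, had 0.090% (0.386% before thinning) at a median of 25729 UMIs per cell, against 35773 in Mature Endoderm. Late Neurectoderm was above that background at 1.31%, Early Neurectoderm at 0.855%, and Caudal Neurectoderm near it at 0.131%.

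Within a name, Otx2 varied between gastruloids. In Anterior Primitive Streak at day 3 of MULTI-seq 3 it was 129 ± 34.3 CPM (SD, n = 4 gastruloids with at least 10 such cells), and in Late Nascent Mesoderm at day 4 it was 69.1 ± 18.1 (SD, n = 14). Head Mesoderm had 87.5 ± 13.4 (SD, n = 7) at day 4 and 55.5 ± 13.2 (SD, n = 7) at day 5. Mature Endoderm spread more widely than these: at day 4 the lowest, median and highest gastruloids were 21.8, 44.0 and 261.9 CPM (n = 14), at day 4.5 they were 0, 26.5 and 68.4 (n = 7), and at day 5 they were 10.6, 115.3 and 209.5 (n = 9). The Mature Endoderm values of the 3 days overlap, and the SD within that name, 68.9 CPM at day 4 and 59.9 at day 5, is larger than the gap to its neighbours in the order of pooled levels. MULTI-seq 1 at day 5 had 127 ± 99.3 CPM in Mature Endoderm (SD, n = 6) and MULTI-seq 2 had 60.2 ± 52.0 (SD, n = 4) at day 4.

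Six3 (ENSMUSG00000038805, chr17:85613608-85629302, plus strand) gave 2169 UMIs in 941 cells, 5.03% of them in neural names. Mature Endoderm held 53.8% of the UMIs, at 9.06 CPM, followed by Anterior Primitive Streak at 7.52, Head Mesoderm at 7.40 and Notochord at 5.24 CPM. The thinned share of cells with a UMI in Mature Endoderm was 3.84% (13.4% before thinning). Late Spinal Cord had no Six3 UMI in 5875 cells, which allows a level of up to 0.0191 CPM, and Early Spinal Cord had 1 UMI. Of the other neural names, Early Neurectoderm was at 0.866 CPM, and Late Neurectoderm at 0.355 on 15 UMIs in 9 cells. In Early Neurectoderm of MULTI-seq 3, Six3 was at 0.233 CPM at day 3 and 0.0758 at day 3.5. It was at 3.80 CPM in cells of the lanes of days 3.5 and 4 that were not assigned to 1 day. Barcode 7 of MULTI-seq 3 day 4 held 12 Six3 UMIs over 6 cells of this name, and without it the pooled level was 0.714 CPM. Reads of Six3os1, transcribed from the opposite strand at the same place, could be counted here if strand was not used; the strand setting was not given in the sources used here.

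Hesx1 (ENSMUSG00000040726, chr14:26994416-27002329, plus strand) gave 765 UMIs in 440 cells, 5.49% of them in neural names. Mature Endoderm held 59.5% of them, at 3.53 CPM, and Head Mesoderm was at 2.26 CPM. Anterior Primitive Streak, high for Otx2 and Six3, had Hesx1 at 0.078 CPM, and Notochord at 0.289. Late Neurectoderm had no Hesx1 UMI in 1381 cells, which allows up to 0.0711 CPM. Early Neurectoderm was at 0.284 CPM pooled, and at 0.221 without barcode 7 of MULTI-seq 3 day 4. It was at 0 in all 21 gastruloids of day 3 and all 9 of day 3.5 of MULTI-seq 3 with at least 10 such cells. Cells of this name in the lanes of days 3.5 and 4 that were not assigned to 1 day had 0.739 CPM.

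Most Six3 and Hesx1 molecules came from few gastruloids. Barcode 7 of MULTI-seq 3 day 4 held 38.5% of the Six3 UMIs in cells with a call (635) and 47.0% of the Hesx1 UMIs (287), against 15.8% of the Otx2 UMIs (3773). Barcode 18 at day 5 held a further 15.2% of the Six3 UMIs, and barcode 1 at day 4 held 16.1% of the Hesx1 UMIs. For each of these genes 2 gastruloids held at least 50% of the UMIs, whereas 7 were needed for Otx2 and 28 for Gbx2. Without barcode 7, chosen after its values were seen, Mature Endoderm was at 81.2 CPM for Otx2, 6.73 for Six3 and 2.05 for Hesx1, and Head Mesoderm at 79.5, 5.24 and 1.32 CPM. A UMI of Six3 was nevertheless found in 88 of 136 gastruloids, of Hesx1 in 61 and of Otx2 in 121.

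**Figure D1:**
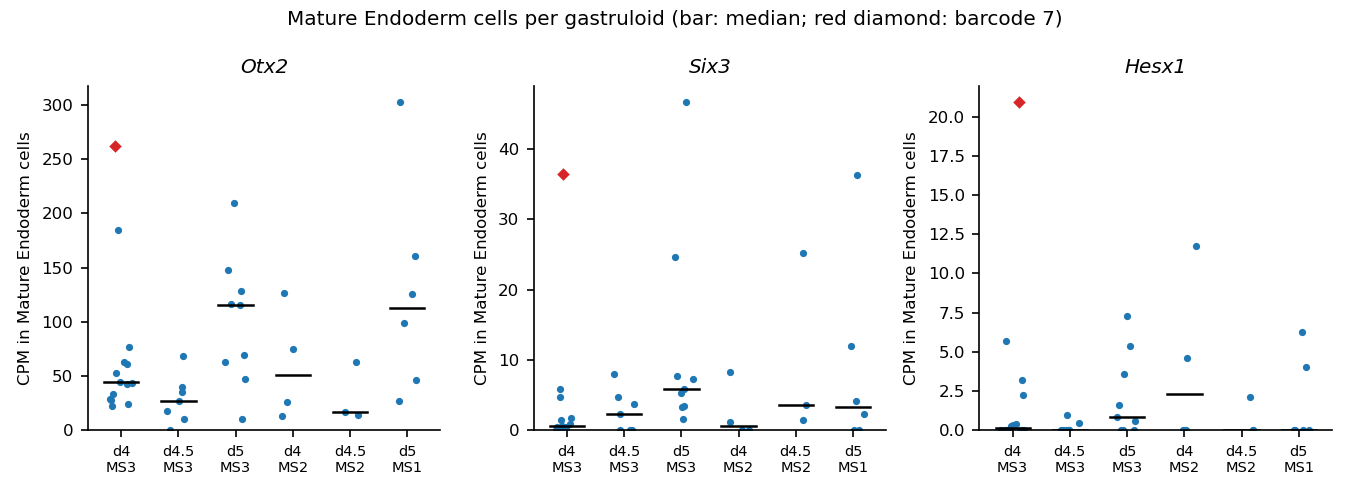
Otx2, Six3 and Hesx1 in Mature Endoderm cells, as CPM per gastruloid with at least 10 such cells (points), by day and experiment (MS, MULTI-seq); bars are medians and the red diamond is barcode 7 of MULTI-seq 3 day 4. That gastruloid is at 261.9 CPM for Otx2, 36.4 for Six3 and 20.9 for Hesx1, while the day 4 medians of Otx2 and Six3 are 44.0 and 0.532 CPM.

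In Mature Endoderm the day 4 gastruloids of MULTI-seq 3 had Six3 at 0, 0.532 and 36.4 CPM (lowest, median, highest of 14) and day 5 at 1.51, 5.80 and 46.6 (of 9). The days overlap over most of their range. Hesx1 there was at 0 in 7 of 14 gastruloids at day 4 and in 3 of 9 at day 5. Head Mesoderm had Six3 at 4.75 ± 6.55 CPM (SD, n = 7) at day 4 and 6.91 ± 5.37 (SD, n = 7) at day 5.

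The 3 genes were found in the same cells. In Mature Endoderm, 174 of 179 cells with Hesx1 also had Otx2 (97.2%, against 53.8% of the other cells), and after thinning the shares were 92.5% against 25.4%. Of 366 cells with Six3, 333 had Otx2 (91.0% against 51.3%; thinned 65.7% against 24.9%). Six3 was in 92 of the 179 Hesx1 cells (51.4% against 10.7%; thinned 22.5% against 3.56%). Cells with Hesx1 were deeper than the others before thinning, at a median of 52799 against 34711 UMIs. Before thinning, Head Mesoderm had 87 of 92 Hesx1 cells with Otx2 and 180 of 207 Six3 cells with Otx2, in a name where most cells had an Otx2 UMI. These cells share libraries and a few gastruloids, so the shares are a description. The counts kept cells without a gastruloid call, and doublets by MULTI-seq barcode were not left out.

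Gbx2 (ENSMUSG00000034486, chr1:89927956-89931179, minus strand) gave 78935 UMIs in 29925 cells and was found in all 136 gastruloids. Neural names held 56.8% of the UMIs, at 78.0 CPM against 19.8 in the others, and 71.1% of neural cells had a UMI. Pooled over days and experiments, the order of levels was Caudal Neurectoderm at 96.2 CPM, Early Neurectoderm at 93.5, Early Spinal Cord at 89.5, Late Posterior presomitic mesoderm (PSM) at 58.6, Late Spinal Cord at 53.8, Early Posterior PSM at 51.7 and Late Neurectoderm at 47.2 CPM. Epiblast, Caudal Epiblast and neuromesodermal progenitors (NMPs) followed at 42.7, 38.6 and 37.2 CPM. This order did not hold within each day. At day 3.5 of MULTI-seq 3, Late Neurectoderm was at 138 ± 66.8 CPM (SD, n = 3) and Early Neurectoderm at 132 ± 16.4 (SD, n = 9). Caudal Neurectoderm was then at 93.1 ± 25.0 CPM (SD, n = 13). Thinned shares of cells with a UMI were 35.3% in Caudal Neurectoderm, 33.7% in Early Spinal Cord and 32.7% in Early Neurectoderm, against 0.731% in Mature Endoderm (85.6% and 6.13% before thinning in the first and the last). D130058E05Rik overlaps Gbx2, as Otx2os1 overlaps Otx2, 1700039E22Rik Pax2 and Gm13415 Pax8, and reads of such pairs may not be told apart.

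In Early Spinal Cord the group means of Gbx2 lay between 73.4 and 99.2 CPM: 99.2 ± 13.7 (SD, n = 15) at day 4.5 of MULTI-seq 3, 91.3 ± 10.7 (SD, n = 16) at day 5 and 84.1 ± 16.2 (SD, n = 23) in MULTI-seq 1. Early Neurectoderm was at 60.9, 71.8 and 114.7 CPM (lowest, median, highest of 21) at day 3 of MULTI-seq 3 and at 96.7, 140.5 and 150.4 (of 9) at day 3.5, from different lanes. Late Neurectoderm was at 138 ± 66.8 CPM (SD, n = 3) at day 3.5, 27.1 ± 12.7 (SD, n = 3) at day 4.5 and 15.2 ± 11.5 (SD, n = 4) at day 5. In the mesodermal Late Posterior PSM it was 70.0 ± 10.9 (SD, n = 4) at day 3.5, 66.1 ± 17.3 (SD, n = 14) at day 4, 53.4 ± 9.89 (SD, n = 12) at day 4.5 and 32.6 ± 9.86 (SD, n = 16) at day 5.

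Otx2 and Gbx2 levels stood opposite each other across names. Each of 125 profiles held at least 100 cells of 1 name, 1 experiment and 1 day label. Some labels join days 3.5 and 4, 4 and 4.5, or 4.5 and 5, for cells not assigned to 1 day. Over the profiles, Pearson's r of log2(CPM + 1) was -0.74 for the pair. The 30 neural and 95 other profiles share libraries and gastruloids. Otx2 and Six3 had r = 0.70, Hesx1 and Six3 0.71, Hesx1 and Otx2 0.51, and En1 and Wnt1 0.59. Among the 12558 genes that reached 5 CPM in a profile, those nearest to Otx2 were Bcar3 (0.83), Sec14l4 (0.81) and Emb (0.81), and those nearest to Gbx2 were Prkar2a (0.87), Fzd10 (0.84) and Nell2 (0.82). Six3 was nearest to its antisense neighbour Six3os1 (0.90), then Foxa1 (0.80) and Fam107a (0.79), and Hesx1 to Ermn (0.83), Fgf16 (0.81) and Dpp4 (0.81). The sparse members had lower values. En1 was nearest to Cyp46a1 (0.75), Gm32061 (0.73) and Msx3 (0.73), Wnt1 to Tfap2b (0.69), Wnt7b (0.63) and En1 (0.59), and Egr2 to Vgll3 (0.70), Car10 (0.66) and Casz1 (0.63). Pax8 was nearest to Trim55 (0.72), Cavin2 (0.69) and Mtus2 (0.65), and Pax2 to Igsf9 (0.62), Grik5 (0.61) and Ephb2 (0.57).

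**Figure D2:**
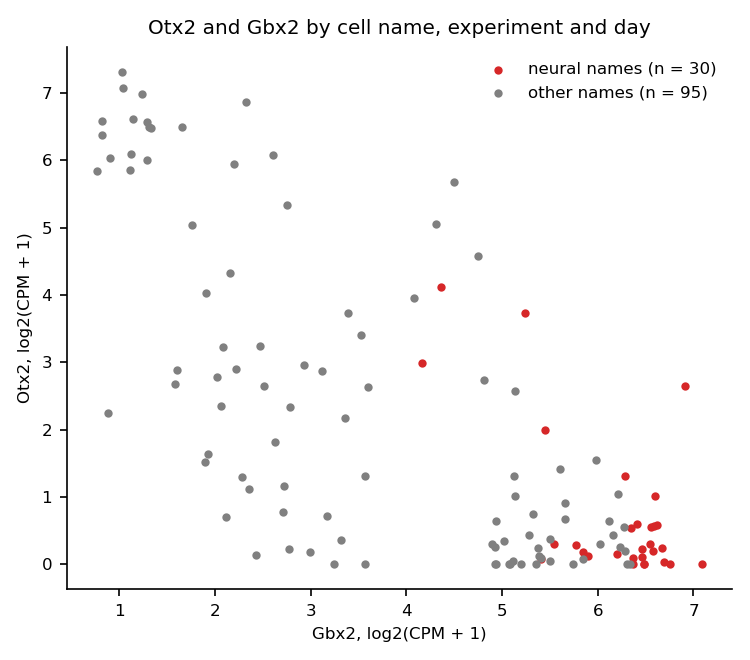
Otx2 (vertical) against Gbx2 (horizontal), both as log2(CPM + 1), in 125 profiles of 1 cell name, 1 experiment and 1 day label. Some day labels join neighbouring days, for cells not assigned to 1 day. Red points are the 30 profiles of neural names and grey points the 95 of other names. The neural profiles lie to the lower right, with Otx2 at up to 16.3 CPM and Gbx2 at 17.0 CPM or above, and r is -0.74 over all points.

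En1 (ENSMUSG00000058665, chr1:120602418-120607992, plus strand), a homeodomain factor of midbrain and anterior hindbrain that also marks dermomyotome, gave 1683 UMIs, 54.5% of them in neural names. Late Neurectoderm was highest at 9.31 CPM, on 393 UMIs in 146 of 1381 cells from 48 gastruloids, and Late Spinal Cord followed at 1.63 CPM. Thinned, 3.28% of Late Neurectoderm cells had a UMI (10.6% before thinning), against 0.840% in Late Spinal Cord and 0.25% in Mature Somites. Between gastruloids the Late Neurectoderm level was 8.67 ± 12.2 CPM (SD, n = 3) at day 3.5 of MULTI-seq 3, 14.7 ± 25.1 (SD, n = 3) at day 4.5 and 9.0 ± 7.36 (SD, n = 4) at day 5, so the SD was near or above the mean. The day 5 value rests on few cells of few lanes, being 0 without lane B and 18.5 CPM with all cells of that name and day pooled. In Late Spinal Cord it was 2.07 ± 1.15 (SD, n = 7) at day 4.5 and 1.70 ± 0.705 (SD, n = 8) at day 5, and 0.873 ± 1.21 (SD, n = 15) in MULTI-seq 1.

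Wnt1 (ENSMUSG00000022997, chr15:98789857-98793837, plus strand), the signal of the boundary of midbrain and hindbrain and of the roof plate, gave 118 UMIs in 40 cells of the whole series, 86.4% of them in neural names. Late Neurectoderm held 84 UMIs in 15 cells, 1.99 CPM, with up to 19 UMIs in 1 cell. Among the called cells, 36 of the 103 Wnt1 UMIs came from barcode 13 of MULTI-seq 3 day 5 and 20 from barcode 56 of day 4.5, and 17 of 136 gastruloids had any. It was at 0 in every gastruloid of day 3 of MULTI-seq 3 and of both days of MULTI-seq 2. NMPs had none in 3634 cells, which allows up to 0.0343 CPM.

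In Late Neurectoderm, 13 of the 15 Wnt1 cells had En1 (86.7% against 9.74% of the other cells; thinned 57.1% against 3.00%), and 9 had Otx2 (60.0% against 2.20%). Of the 146 En1 cells, 20 had Otx2 (13.7% against 1.54%). Of the 39 cells with Otx2, which held 238 UMIs and up to 26 in 1 cell, 6 had Gbx2 (15.4% against 51.1%; thinned 0% against 18.4%). A gastruloid call was present in 14 of the 15 Wnt1 cells, 102 of the 146 En1 cells and 26 of the 39 Otx2 cells. Otx2, Wnt1 and En1 were all detected in Late Neurectoderm cells of some gastruloids: barcode 56 of MULTI-seq 3 day 4.5 had En1 at 43.7, Wnt1 at 48.8 and Otx2 at 7.71 CPM over 10 such cells, and barcode 7 of day 5 had 14.2, 17.0 and 14.2 CPM. In others En1 lay between these levels with Otx2 and Wnt1 both at 0: barcode 47 of day 3.5 had En1 at 22.8 CPM, barcode 20 of day 4 at 18.7 and barcode 14 of day 5 at 16.4, all in MULTI-seq 3. Their En1 levels rest on 28, 9 and 4 UMIs, and the Otx2 levels of barcodes 56 and 7 on 3 and 5. With 243785 UMIs in 10 cells, a 0 in barcode 14 does not exclude an Otx2 level like that of barcode 56. Barcode 59 of MULTI-seq 2 day 4.5 had Otx2 at 68.3 and Six3 at 11.4 CPM over 19 cells. The hindbrain factor Hoxa2 was at 14.5 CPM in this name, while Rax, a marker of the eye field, was at 0.

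Egr2 (ENSMUSG00000037868, chr10:67535475-67542188, plus strand) gave 535 UMIs in 462 cells, 22.1% of them in neural names. Late Neurectoderm was at 1.59 CPM, from 67 UMIs in 20 cells, and Early Anterior PSM at 0.852 CPM, from 69 UMIs in 60 cells, so molecules were more concentrated per cell in the former. Late Spinal Cord was at 0.0382 and Early Spinal Cord at 0.0567 CPM. The highest Late Neurectoderm levels per gastruloid were 6.51 CPM in barcode 25 of day 4.5, 4.67 in barcode 2 of day 5 and 3.80 in barcode 22 of day 4, all in MULTI-seq 3. Egr2 is also induced as an immediate-early gene by stress and growth factors. The summed level of 10 immediate-early and dissociation genes per gastruloid was 99.6, 109 and 158 CPM (lowest, median, highest) at day 3.5 and 93.1, 145 and 161 at day 4 of MULTI-seq 3; their part in the Egr2 counts was not tested.

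Pax2 (ENSMUSG00000004231, chr19:44756045-44837871, plus strand) gave 1250 UMIs in 1115 cells, 34.2% of them in neural names, close to 1 UMI per cell. Pooled over days and experiments, and apart from Neurons, at 2.52 CPM on 3 UMIs, it was highest in Cardiopharyngeal Mesoderm at 1.74 CPM, then Mature Endoderm at 1.23, NMPs at 0.938, Early Spinal Cord at 0.907 and Late Neurectoderm at 0.877 CPM. At day 4 of MULTI-seq 3, Early Spinal Cord was at 4.52 ± 3.50 CPM (SD, n = 5) and Cardiopharyngeal Mesoderm at 1.60 ± 1.23 (SD, n = 8). At day 4 of MULTI-seq 2 the former was at 0 in all 4 gastruloids and the latter at 1.64 ± 1.33 CPM (SD, n = 4). Pax8 (ENSMUSG00000026976, chr2:24420560-24475599, minus strand) gave 88 UMIs in 72 cells and was found in 34 of 136 gastruloids. It was at 0.551 CPM in PGCs on 6 UMIs and 0.171 in Cardiopharyngeal Mesoderm on 12. Mature Endoderm had none in 2740 cells, which allows up to 0.0233 CPM, and Late Neurectoderm had 1 UMI. The Pax8 ranking therefore rests on few molecules.

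The authors also mapped each cell to the nearest of 71 embryo cell types, of which 10 are brain types; these took 1702 cells (2.19%) from 91 gastruloids. The mapping and the names do not coincide: 51.2% of the brain-mapped cells were named Late Spinal Cord and 40.3% Late Neurectoderm, which is 49.7% of that name. Cells mapped to the midbrain and hindbrain boundary numbered 144 and had En1 at 36.5 CPM (95% Poisson interval 30.4 to 43.4, counting error only), Wnt1 at 15.0 (11.2 to 19.7), Otx2 at 17.7 and Gbx2 at 41.4 CPM. Of these 144 cells the authors named 76 (52.8%) Late Spinal Cord and 66 Late Neurectoderm. En1 was in 33 of these cells from 14 gastruloids and Wnt1 in 6 cells from 4. Of the genes that act with them at that boundary, En2 was at 27.5, Pax5 at 8.68 and Fgf8 at 26.3 CPM.

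The 536 cells mapped to ventral hindbrain progenitors had the highest Egr2, 3.48 CPM (2.60 to 4.56), from 52 UMIs in 10 cells of 4 gastruloids, with the hindbrain genes Hoxa2 at 27.6 and Hoxb2 at 22.8 CPM. The 58 cells mapped to ventral forebrain progenitors had Six3 at 52.2 CPM (38.7 to 69.1), but from 49 UMIs in 3 cells, 36 of them from 1 gastruloid. Their forebrain markers went against the label: Rax, Six6 and Lhx2 were at 0 and the hindbrain gene Hoxb2 at 58.6 CPM, and 63.8% of these cells were named Late Spinal Cord. The 50 cells mapped to hindbrain floor plate had En1 at 22.2 and Six3 at 16.0 CPM, but only 60% of them carried neural names. The mapping uses the same expression values, so none of these levels was tested.

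**Figure D3:**
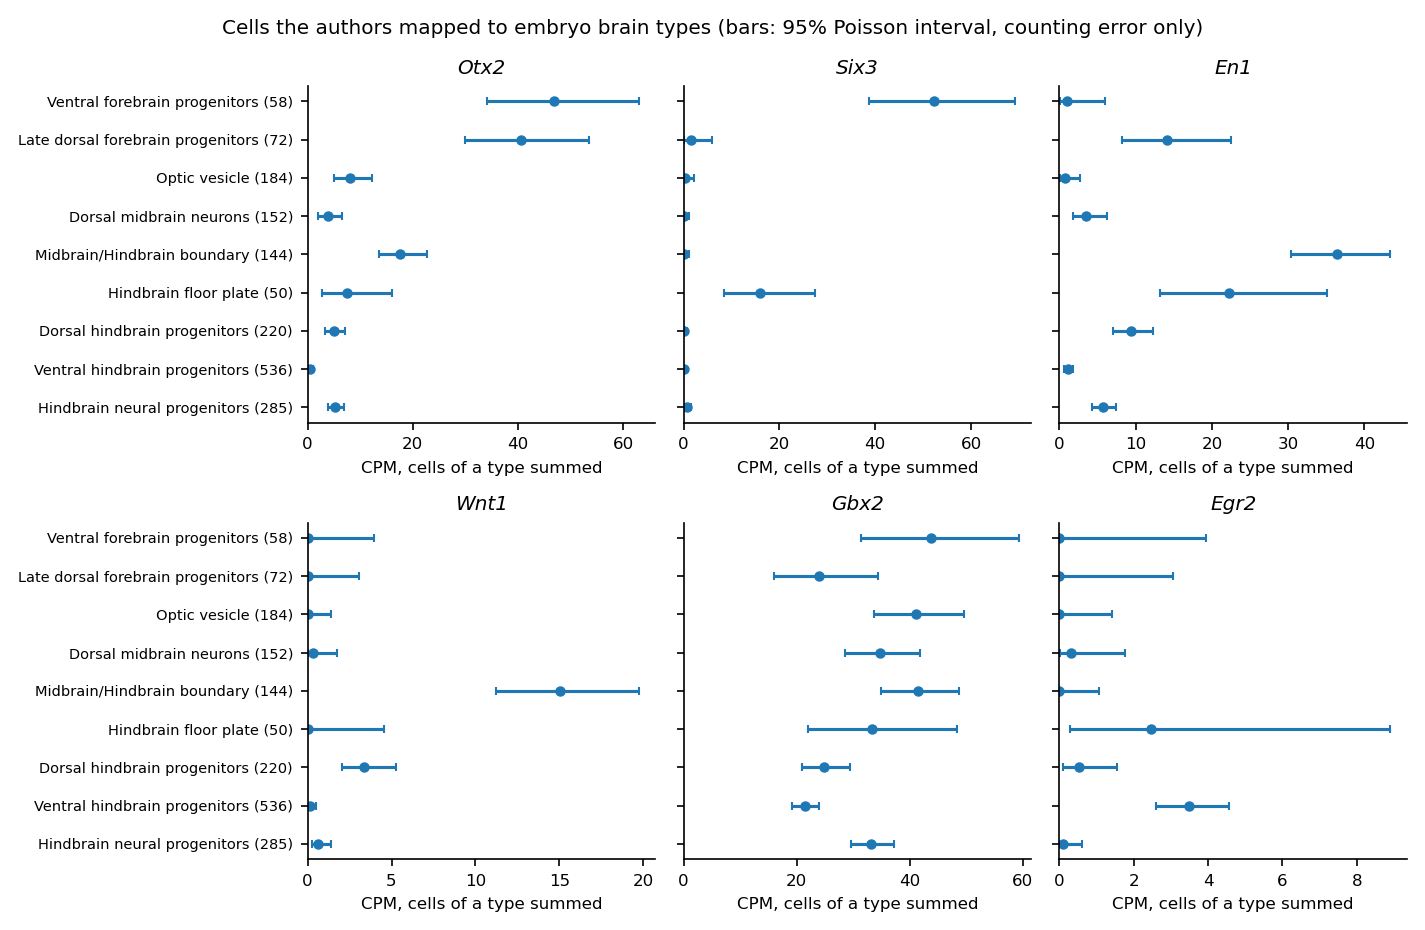
Level of 6 genes (horizontal, CPM of all cells of a type summed) in cells mapped by the authors to the 9 brain types of the embryo with at least 50 cells, with the number of cells in parentheses; bars are 95% Poisson intervals that cover counting error only. En1 and Wnt1 are highest in Midbrain/Hindbrain boundary, at 36.5 and 15.0 CPM, Egr2 in Ventral hindbrain progenitors at 3.48 and Six3 in Ventral forebrain progenitors at 52.2.

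Outside the brain types, 159 cells mapped to foregut had Otx2 at 264, Six3 at 32.1 and Hesx1 at 19.8 CPM, with 113 of 170 Hesx1 UMIs from 1 gastruloid. The 51 cells mapped to thyroid primordium had Otx2 at 318 and Six3 at 97.0 CPM while the thyroid factor Nkx2-1 was at 0, so the type is named here only as the authors mapped it. Visceral endoderm (77 cells) and midgut (404 cells) had Otx2 at 180 and 140 CPM. Pax8 was highest in the 115 cells mapped to kidney primordium, 5.71 CPM from 13 UMIs in 5 cells, with Pax2 at 3.52, the intermediate mesoderm gene Osr1 at 33.4 and the somite gene Meox1 at 206 CPM.

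Between days, whole gastruloids were compared by summing the counts of each and testing them with edgeR's quasi-likelihood test, with Benjamini-Hochberg adjusted p over all genes and a threshold of 0.05. From day 3.5 to day 4 in MULTI-seq 3, 60.4% of the 13262 genes tested were called, 4131 higher and 3875 lower, so that a call is the usual outcome here. Of the 9 members 4 passed the filter on low counts, and 3 of those were called: Otx2 and Pax2 rose and Gbx2 fell. In such sums, fewer cells of a type and less RNA per cell cannot be told apart.

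Otx2 was at 0, 1.36 and 11.5 CPM (lowest, median, highest of 16 gastruloids) at day 3.5 and at 0.370, 19.4 and 100.6 (of 16) at day 4. The groups overlap, and 14 of 16 day 4 gastruloids lay above the day 3.5 median. The log2 change was 2.94 (SE 0.544, edgeR adjusted p = 2.8e-05), and 2.64 to 3.27 when each gastruloid was left out in turn. Gbx2 was at 38.8, 77.1 and 111.7 CPM at day 3.5 and at 4.32, 16.4 and 86.1 at day 4, with 1 of 16 above the day 3.5 median although the ranges overlap. Its log2 change was -1.65 (SE 0.316, edgeR adjusted p = 4.5e-05), between -1.92 and -1.57 without 1 gastruloid. Pax2 was at 0, 0.361 and 1.62 CPM at day 3.5 and at 0.240, 0.679 and 1.18 at day 4, a log2 change of 0.71 (SE 0.266, edgeR adjusted p = 0.022), with 14 of 16 above the earlier median. These 3 calls held in every fit that left out 1 gastruloid, while Pax2 did not pass the filter in the 4 fits that left out 1 lane.

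En1 was at 0.162, 0.296 and 2.93 CPM at day 3.5 and at 0.184, 0.63 and 1.84 at day 4, a log2 change of 0.28 (SE 0.350, edgeR adjusted p = 0.50). Without barcode 47 of day 3.5 it was 0.70 with an edgeR adjusted p of 0.046. Six3 and Hesx1 did not pass the filter: Six3 was at 0, 0.101 and 0.362 CPM at day 3.5 and at 0.0461, 0.147 and 16.9 at day 4, and Hesx1 at 0, 0 and 0.162 and at 0, 0.149 and 7.65. The medians lay close together and the highest day 4 values far above. With no filter the log2 changes were 3.80 for Six3, 3.59 for Hesx1 and 1.05 for Egr2 (edgeR adjusted p = 0.0014, 0.0028 and 0.022), and without barcode 7 they were 2.38, 2.34 and 1.09 (0.0085, 0.013 and 0.019). Egr2 was at 0, 0.130 and 0.473 CPM at day 3.5 and 0, 0.322 and 0.802 at day 4. Pax8 and Wnt1 were at or near 0 in most gastruloids of both days.

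**Figure D4:**
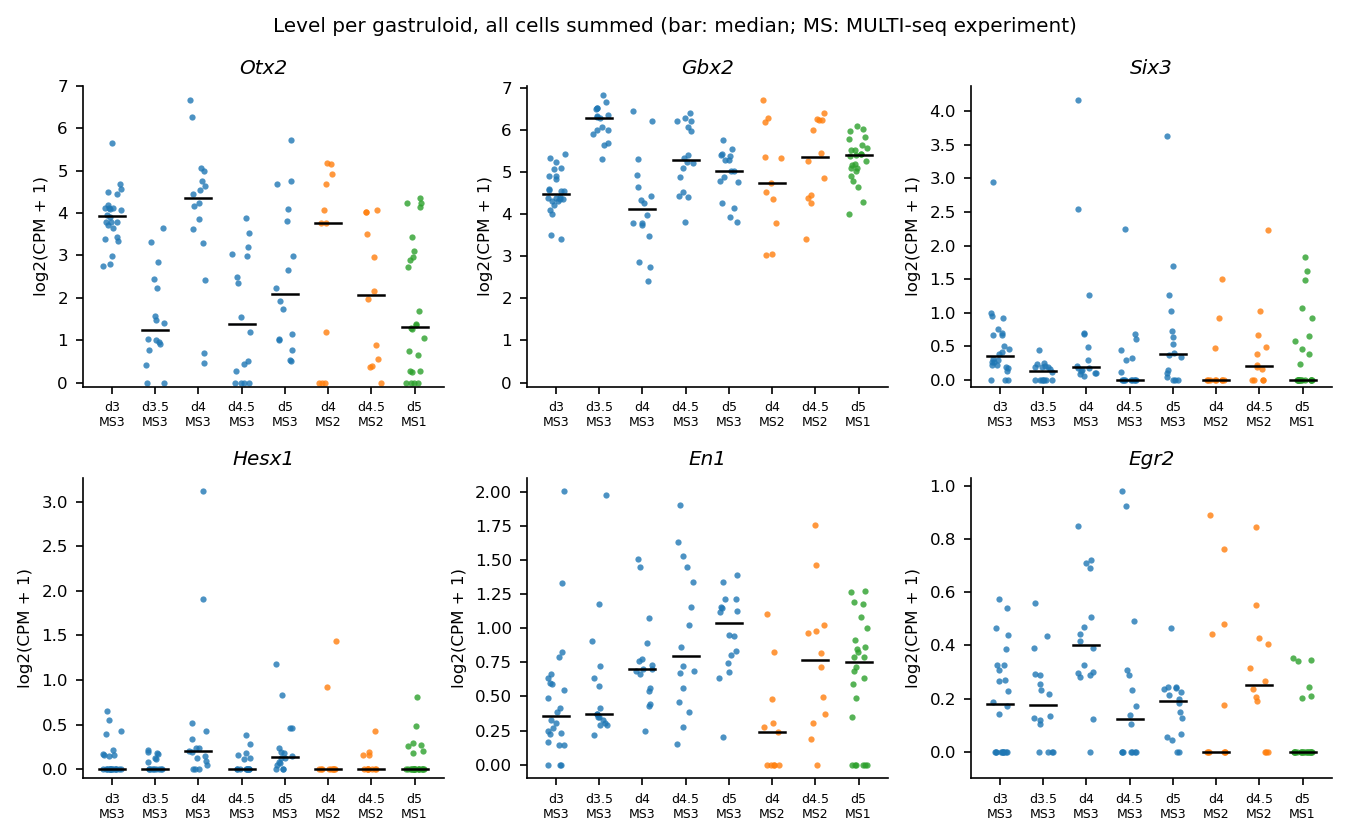
Otx2, Gbx2, Six3, Hesx1, En1 and Egr2 per gastruloid, as log2(CPM + 1) of all its cells (points; bars are medians), by day and MULTI-seq experiment (MS). In MULTI-seq 3 the Otx2 median is 1.36 CPM at day 3.5 and 19.4 at day 4, where the Gbx2 median is 77.1 and 16.4, and single day 4 gastruloids stand high for Six3 and Hesx1.

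Single gastruloids of day 4 carried high Otx2 and low Gbx2 or the reverse. Barcode 7 had Otx2 at 100.6, Six3 at 16.9, Hesx1 at 7.65 and Gbx2 at 4.32 CPM, the highest and the lowest of the day in turn, and barcode 1 had 75.8, 4.82, 2.74 and 5.68 CPM. Barcode 20 had Gbx2 at 86.1 with Otx2 at 0.614 CPM, and barcode 22 had 72.9 and 0.370. Neural names took 270 of the 390 cells of barcode 20 and 337 of the 457 of barcode 22, against 22 of the 992 of barcode 1. The makeup of the gastruloids moved between the days as well. The median share of Mature Endoderm cells was 0.199% at day 3.5 and 7.91% at day 4, of Late Nascent Mesoderm 0% and 9.37%, and of Caudal Neurectoderm 21% and 0.257%, while Head Mesoderm went from 0% in all to between 0% and 26.3%. The summed level of the anterior visceral and definitive endoderm markers went from 19.8, 40.2 and 327 CPM to 20.7, 460.7 and 893, with 6 of 9 tested genes called higher (Cer1 by 4.60, Trh by 2.83, Foxa1 by 2.76, Sox17 by 2.70 and Foxa2 by 1.76 on the log2 scale among them), where 60.4% of all genes were called, 4131 of 13262 as higher. That of the neural markers went from 292, 358 and 526 to 278, 314 and 678 CPM. The part of these shifts in the changes of Otx2 and Gbx2 was not tested.

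Other genes of the same regions were taken from lists chosen with earlier results of these data known. From day 3.5 to day 4, the forebrain and midbrain list had 2 genes higher and 2 lower of 8 tested (21 listed), with a median log2 change of 0.56 against 0.01 over all genes: Pax6 rose by 1.11 and Lhx2 by 0.82, and Sp8 fell by 1.04 and Pou3f1 by 0.96. The list of the midbrain and hindbrain boundary had 1 higher and 4 lower of 7 tested (8 listed), with a median of -0.66. Cnpy1 fell by 2.36, En2 by 1.56, Sp5 by 1.14 and Fgf8 by 0.66, and Spry1, an inhibitor of Fgf signalling, rose by 1.00. Fgf8 is the boundary organizer's growth factor but was also on the list of streak markers, and these sums take in all cells of a gastruloid. The hindbrain list had 6 higher and 2 lower of 12 tested (14 listed), with a median of 0.58. Among them Irx3, Hoxd3 and Hoxb3 rose by 1.74, 1.19 and 0.78, and Phox2a fell by 1.02. Of the spinal cord and tail genes of the Hox and Cdx families 5 of 12 fell and none of those tested rose: Cdx1 by 2.44, Cdx2 by 1.49, Cdx4 by 1.42, Hoxb9 by 1.08 and Hoxb8 by 1.03. These shares called are to be read against the 60.4% of all genes called in the comparison, which the forebrain and midbrain list and the spinal cord and tail list did not reach and the other lists passed by few genes. All of these calls kept their direction with DESeq2 and with library size alone.

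From day 4.5 to day 5 in MULTI-seq 3, where 13.5% of 12298 genes were called (781 higher and 874 lower; 903 and 645 with library size alone), 3 members were tested and edgeR called none. DESeq2 also called none, and Gbx2 alone had an unadjusted p under 0.05. Otx2 was at 0, 1.61 and 13.7 CPM at day 4.5 and 0.431, 3.28 and 51.6 at day 5, overlapping groups with a log2 change of 1.35 (SE 0.661, edgeR adjusted p = 0.18). Gbx2 was at 13.1, 37.9 and 83.1 and at 13.0, 31.6 and 52.6 CPM, a change of -0.53 (edgeR adjusted p = 0.14). En1 was at 0.111, 0.736 and 2.75 and at 0.148, 1.05 and 1.62 CPM, with a change of -0.05 (edgeR adjusted p = 0.95). In the companion lists, 0 of 4 forebrain and midbrain genes, 1 of 5 boundary genes, 2 of 11 hindbrain genes and 2 of 12 spinal cord and tail genes were called, the last with 1 in each direction (2 higher and 1 lower with library size alone).

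In MULTI-seq 2, where 7.36% of 11064 genes were called from day 4 to day 4.5 (335 higher and 479 lower; 511 and 381 with library size alone), 2 members were tested and neither edgeR nor DESeq2 called either, with Otx2 alone at an unadjusted p under 0.05. Otx2 was at 0, 12.7 and 35.1 CPM at day 4 (n = 11) and at 0, 3.21 and 15.7 at day 4.5 (n = 12), a log2 change of -1.34 (edgeR adjusted p = 0.20). Gbx2 was at 7.20, 25.6 and 104.1 and at 9.57, 39.9 and 83.8 CPM, with a change of 0.28 (edgeR adjusted p = 0.78). The Gbx2 change was 1.04 with at least 100 cells per gastruloid (edgeR adjusted p = 0.21), 0.52 without lane 2 and 0.44 without lane 3. The groups overlap for both genes, and every day 4.5 value of Otx2 lay within the day 4 range. In the companion lists, 1 of 4 forebrain and midbrain genes, 1 of 4 boundary, 2 of 11 hindbrain and 4 of 12 spinal cord and tail genes were called. The last were 3 higher and 1 lower with DESeq2 and with library size alone.

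Gastruloids of the same day were also compared between experiments, which were run in separate lanes, so that experiment and lane cannot be told apart. At day 5, 63.7% of 11718 genes differed between MULTI-seq 3 and MULTI-seq 1 (3518 higher and 3945 lower; 1581 and 7169 with library size alone, which moves the median gene from -0.02 to -0.25). Of 2 members tested, 1 was called. Otx2 was at 0, 1.5 and 19.3 CPM in MULTI-seq 1 (n = 24) and at 0.431, 3.28 and 51.6 in MULTI-seq 3 (n = 16), with 10 of 16 above the MULTI-seq 1 median. The log2 difference was 1.32 (SE 0.576, edgeR adjusted p = 0.043). This call ended in 20 of 40 fits that left out 1 gastruloid, at most to 0.85 with an edgeR adjusted p of 0.19 without barcode 18, and with DESeq2 (adjusted p = 0.13) and library size alone (0.081). It also ended without lane A of MULTI-seq 3 (edgeR adjusted p = 0.0503) and without lane 1 or 2 of MULTI-seq 1 (0.069 and 0.058). Gbx2 was at 14.9, 41.1 and 66.7 CPM in MULTI-seq 1, a difference of -0.15 (edgeR adjusted p = 0.44), and of -0.38 with library size alone (0.033). En1 did not pass the filter; it was at 0, 0.684 and 1.41 CPM in MULTI-seq 1 and at 0.148, 1.05 and 1.62 in MULTI-seq 3, and was called by DESeq2 (log2 difference 0.90, adjusted p = 0.0012) and by edgeR with no filter (0.90, 0.013). With no filter edgeR also called Six3 (1.82, 0.033) and Wnt1 (3.39, 0.0035), but not Otx2. Of the hindbrain list 7 of 11 tested genes were lower and 1 higher in MULTI-seq 3 (9 and 0 with library size alone), Hoxb2 by -0.68 and Hoxb3 by -0.70 on the log2 scale among them. These 8 of 11 stand beside the 63.7% of all genes called. Of the spinal cord and tail list 5 of 11 were lower (9 with library size alone). The boundary list had Fgf17 and Sp5 lower of 5 tested (none called with DESeq2, 3 with library size alone), and the forebrain and midbrain list had Sp8 lower of 5.

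Between MULTI-seq 3 and MULTI-seq 2, 46.1% of 13713 genes differed at day 4 (3155 higher and 3173 lower; 5319 and 1554 with library size alone, which moves the median gene from 0.02 to 0.18) and 42.5% of 11695 at day 4.5 (2468 and 2498; 1993 and 3082). At day 4 none of 4 tested members was called by edgeR or by DESeq2, and none had an unadjusted p under 0.05. The log2 differences were 0.49 for Otx2, 0.90 for En1, 0.71 for Pax2 and -0.78 for Gbx2 (edgeR adjusted p = 0.54, 0.15, 0.16 and 0.19). With at least 100 cells per gastruloid they were 0.23, 0.59, 0.46 and 0.0775, so that of Gbx2 turned direction. Without lane 2 of MULTI-seq 2 they were 0.32 for Otx2 and -0.44 for Gbx2. At day 4.5 none of 2 was called by either tool or had such an unadjusted p, with Otx2 at -0.69 and Gbx2 at 0.06 (edgeR adjusted p = 0.44 and 0.90; 0.02 to 0.12 for Gbx2 over the alternatives). The day 4 values of Otx2 overlapped between the experiments, with medians of 19.4 and 12.7 CPM. In the companion lists, 2 of 10 forebrain and midbrain genes, 1 of 7 boundary, 1 of 13 hindbrain and 2 of 12 spinal cord and tail genes were called at day 4. At day 4.5 these were 0 of 4, 0 of 5, 2 of 11 and 4 of 12, the last 4 higher in MULTI-seq 3 with DESeq2 and with library size alone.

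Within neural cells, summed per gastruloid with at least 20 of them, 1 member passed the filter. From day 3.5 to day 4 of MULTI-seq 3, where 9.18% of 10686 genes were called, Gbx2 was at 77.0, 110.3 and 121.6 CPM (n = 11) and at 20.8, 82.4 and 100.6 (n = 6). None of the 6 lay above the day 3.5 median, but the log2 change of -0.38 (SE 0.127, edgeR adjusted p = 0.058) missed the threshold. With at least 50 neural cells the change was -0.21, but only barcodes 20 and 22 then stood for day 4, with 270 and 337 such cells. Without lane B the change was -0.25 with an edgeR adjusted p of 0.15, and without lane D -0.27 with an edgeR adjusted p of 0.047. Beside it, the change over whole gastruloids was -1.65; the difference between them was not tested. Otx2 in neural cells was at 0, 0 and 0.341 CPM at day 3.5 and at 0, 0.580 and 22.1 at day 4, the highest from 17 UMIs in 22 cells of barcode 1. DESeq2 gave 5.26 (adjusted p = 0.0013) and edgeR with no filter 3.97 (0.013). The neural names also changed in makeup, from 47.6% Caudal Neurectoderm, 19.9% Early Neurectoderm and 19.7% Early Spinal Cord to 40.7% Early Spinal Cord and 24.4% Caudal Neurectoderm, and the part of this in the values was not tested. Of the hindbrain list 3 of 11 tested genes rose with edgeR, but 1 with DESeq2 and 2 with library size alone, and of the spinal cord and tail list 4 of 11, with 5 and 4. Of the boundary list 3 of 6 tested genes were called with edgeR, DESeq2 and library size alone: the signalling ligands Fgf8 and Fgf17 rose by 1.51 and 1.70 on the log2 scale, and Sp5, a transcriptional target of Wnt signalling, fell by 1.04. Over whole gastruloids 1 boundary gene of 7 was called higher and 4 lower; the difference was not tested. Neither of the 2 tested forebrain and midbrain genes was called in neural cells.

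From day 4.5 to day 5, 7.85% of 9968 genes were called in neural cells, and Gbx2 was not: it was at 40.8, 83.6 and 102.9 CPM (n = 14) and at 47.2, 75.1 and 96.3 (n = 15), a log2 change of -0.17 (edgeR adjusted p = 0.45). Within 1 name the values were as follows. In Early Spinal Cord, where 12.3% of 9150 genes were called, Gbx2 was at 68.1, 102.7 and 115.6 CPM and at 72.9, 90.2 and 106.0, a change of -0.17 (SE 0.061, edgeR adjusted p = 0.052). In Late Spinal Cord, where 7.79% of 9921 genes were called (387 higher and 386 lower; 308 and 594 with library size alone), it was at 44.1, 60.0 and 74.4 (n = 7) and at 36.8, 44.8 and 64.4 (n = 8), a change of -0.38 (SE 0.123, edgeR adjusted p = 0.058). Without lane A the Early Spinal Cord change was called (-0.22, edgeR adjusted p = 0.032), as was that of Late Spinal Cord without lane C (-0.42, 0.042). The groups overlap in both names, and both had an unadjusted p under 0.05; DESeq2 called Gbx2 neither in these names nor in all neural cells. Late Spinal Cord cells made up 32.9% of neural cells at day 4.5 and 51.0% at day 5.

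The companion lists were also counted within these neural cells from day 4.5 to day 5, beside 7.85% of all genes called in all neural cells, 12.3% in Early Spinal Cord and 7.79% in Late Spinal Cord. Of the hindbrain list 3 of 11 tested genes were called in all neural cells, 6 of 11 in Early Spinal Cord (4 with DESeq2) and 4 of 11 in Late Spinal Cord, all of them higher. The spinal cord and tail list had 3 higher and 2 lower of 10 in all neural cells, 4 and 2 of 10 in Early Spinal Cord, and 2 and 2 of 9 in Late Spinal Cord (2 and 1 with DESeq2). Of the boundary list none of 4 was called in all neural cells and none of 2 in Late Spinal Cord, while Early Spinal Cord had 1 higher and 1 lower of 4 (none with DESeq2). The 1 forebrain and midbrain gene tested in Early Spinal Cord, the transcription factor gene Sp8, was called higher by 0.24 on the log2 scale, and none of 3 was called in all neural cells or in Late Spinal Cord.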

How the data were processed

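Single-cell RNA libraries were made with 10x 3′ v3.1 chemistry, per the labels' protocols. The authors deposited raw UMI counts per gene and barcode, with a table that gives each cell's gastruloid, cell name and mapped embryo type; Cell Ranger 6.0.0, Seurat and mm10 are named in the submitters' processing notes. Annotation version and strand setting were not given in the sources used here. Cells called doublets by MULTI-seq barcode (4797) had no gastruloid and stayed out of the tests, and no further doublet caller was run. Counts were summed per gastruloid, with at least 30 cells (20 for neural cells or 1 neural name), and tested with edgeR 4.0.16 in R 4.3.3 (filterByExpr, TMM, quasi-likelihood, Benjamini-Hochberg over all genes, 0.05); DESeq2 1.42.0 was the alternative. Levels by name per gastruloid needed 10 cells. Shares used cells thinned to 5000 UMIs; a count of 0 is given with a limit of 3 counts. Intervals and limits cover counting error only. The edgeR script was tested on simulated data. Promoter sequences are from RefSeq (GRCm38.p6). The genes and lists were chosen with earlier results of these data known. All 9 genes are named; of each list, at most 5 genes called with the smallest adjusted p, and the 3 most correlated genes per member.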

Additional observations from a re-analysis of the deposited data

Results flagged for a closer look

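Of 12 groups of 4 to 10 gastruloids that were examined for a value standing apart from the rest, 1 held such a value: Pax2 in Mature Endoderm cells of MULTI-seq 3 day 4.5. Barcode 66 was at 6.92 CPM (6 UMIs in 21 cells) and the next of the 7 gastruloids at 2.18 CPM (1 UMI in 13 cells), while 3 were at 0. The gap was 0.685 of the whole range, above Dixon's 95% critical value. With counts this low, that 95% level need not hold. Chance flags about 1 in 20 groups.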

How the results depend on the processing

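The sparse genes Six3, Hesx1, Pax8, Egr2 and Wnt1 passed the filter in none of the 10 comparisons. Any call for them came with no filter on low counts or with DESeq2. Members called from day 3.5 to day 4 were 6 with DESeq2 and 6 with no filter, against 3. For MULTI-seq 3 against MULTI-seq 1 they were 3 with no filter (Six3, En1 and Wnt1), 1 with DESeq2 (En1) and 0 to 1 without 1 lane, against 1 (Otx2). In neural cells they were 1 with DESeq2, 2 with no filter and 0 to 1 without 1 lane from day 3.5 to day 4, and 1 with no filter from day 4.5 to day 5, against 0. In Early Spinal Cord 1 was called with a minimum of 50 cells and 0 to 1 without 1 lane, and in Late Spinal Cord 1 with library size alone, 1 with no filter and 0 to 1 without 1 lane, against 0. Genes called fell without 1 lane: 340 to 535 in MULTI-seq 2 (main 814), 442 to 643 in neural cells from day 3.5 to day 4 (main 981, and 280 with a minimum of 50 cells), 511 to 538 in neural cells from day 4.5 to day 5 (main 782), 687 to 859 in Early Spinal Cord (main 1127) and 414 to 621 in Late Spinal Cord (main 773). These fits hold fewer cells. In neural cells from day 3.5 to day 4 the minimum of 50 left only barcodes 20 and 22 for day 4. The Gbx2 difference between MULTI-seq 3 and MULTI-seq 2 at day 4, -0.78, was 0.0775 with a minimum of 100 cells; the cause was not tested. Of the other log2 changes under an alternative, 324 kept direction and side of the threshold, 26 lost the call and 9 gained it. The fits without 1 gastruloid or without barcode 7 were chosen after seeing the data. No paired analysis was possible because each gastruloid comes from 1 day, and lane letters are technical splits of the same gastruloids.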

Other observations

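Lanes without gastruloid calls gave levels over all their cells, with no replicate. The 10x lane of day 3 had Otx2 at 28.6 and Gbx2 at 30.9 CPM, and that of day 4 had Otx2 at 8.91, Gbx2 at 35.2 and Pax2 at 1.38 CPM. Wnt1 was at 0 in both, which allows up to 0.0550 CPM at day 3 and 0.0798 at day 4. The further lanes of MULTI-seq 2, which mix days 4 and 4.5, had Otx2 at 5.68 and 5.28 CPM and Gbx2 at 48.8 and 45.3 CPM, and Hesx1 was at 0 in both, which allows up to 0.0467 and 0.0583 CPM.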
